A study of Mus musculus with 24 samples.

Results

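The 9 genes described here carry the insulin signal from its receptor to glucose uptake: Insr, Irs1, Irs2, Pik3r1, Akt2, Foxo1, Tbc1d4, Slc2a4 and Slc2a1. They were picked by name from the 30699 genes listed in at least 1 of 4 deposited expression tables, with earlier results of these data known, and all 9 occur in all 4 tables. The tables come from mRNA sequencing of fat from C57BL/6 mice, either white (WAT) or brown (BAT). Every mouse, controls included, received an oligonucleotide of locked nucleic acid (LNA) in 2 subcutaneous injections of 25 mg/kg: antimiR-224 inhibits miR-224, antimiR-452 inhibits miR-452, and scramblemiR is the scrambled control. LNA is a chemically modified nucleotide that binds its complement tightly. The 24 libraries form 6 groups of 4, WAT and BAT with each of the 3 oligonucleotides. The labels give no fat depot, age or sex. They also do not state that every library is a mouse of its own, and p-values therefore measure the spread between these samples, which may be technical.

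Insulin binds its receptor, a tyrosine kinase encoded by Insr, which phosphorylates the adaptor proteins IRS1 and IRS2. The adaptors recruit PI 3-kinase, whose regulatory subunit is encoded by Pik3r1, and the lipid it makes activates the kinase AKT2. AKT2 then phosphorylates FOXO1, which leaves the nucleus, and TBC1D4 (AS160), which stops holding back vesicles that carry the glucose transporter GLUT4, encoded by Slc2a4, to the cell surface. GLUT1, encoded by Slc2a1, is the transporter most cells use without insulin. In white fat this route feeds lipid storage, and in brown fat it also supplies fuel for heat production.

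Each deposited table holds group means of normalized counts, and the 4 library values behind each mean were recovered for all 9 genes in all 24 libraries. Libraries are numbered within a group by descending size factor, since they cannot be tied to the sample titles. Each table was scaled on its own, so a control library has a slightly different value beside each inhibitor (at most 0.887% apart in WAT and 1.88% in BAT), and control values printed are those of the antimiR-224 table unless an antimiR-452 comparison is named. The control libraries held 22175430 to 27935908 reads in genes in WAT and 16960694 to 20255777 in BAT. Both labelled tissues bore a marker of adipocytes, and BAT bore that of brown fat. The authors' deposited table for antimiR-224 gives control means of 77329 in WAT and 13401 in BAT for Adipoq, the adipocyte hormone adiponectin. For Ucp1, the uncoupling protein of brown fat, these means are 49.7 and 86679. The tissues were scaled separately, so these means are not on 1 scale. Some libraries stood apart from the rest of their group. Summed normalized counts of 8 less abundant skeletal muscle genes, the 8 of a list of 16 that were recovered, were 63821, 63239, 69.2 and 122 in BAT scramblemiR libraries 1 to 4. The same sums were 27632, 966, 333 and 356 in the antimiR-224 libraries and 160750, 3435, 2007 and 11629 after antimiR-452. In WAT the 7 epithelial markers summed to 589 to 1945 in the controls, 9264, 13100, 1861 and 1170 in the antimiR-224 libraries and 6276, 9730, 7744 and 1000 after antimiR-452. Male germ cell markers summed to 23898 in WAT scramblemiR library 2, to 6980 and 2031 in antimiR-224 libraries 3 and 4, and to 490 or less in every other WAT library. In WAT the sums of 8 skeletal muscle markers were 501, 469, 12249 and 3301 for antimiR-452, whereas no WAT control exceeded 1097. Of the 4 library numbers in each table header, 2 recur between WAT and BAT with scramblemiR, 2 with antimiR-224 and 3 with antimiR-452. Whether a shared number marks the same mouse is not stated, and recovered libraries cannot be tied to these numbers. In bulk tissue, fewer cells of a type and less RNA per cell cannot be told apart.

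The agents target a pair of microRNAs that lie next to each other on chromosome X, minus strand. Their mature sequences are shown because the seed, bases 2 to 8 in capitals, is the stretch that pairs with a target transcript. The labels do not say which arm the inhibitors were made against. From RefSeq (GRCm38.p6), the 4 arms are as follows.
mmu-miR-224-5p: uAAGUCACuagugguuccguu
mmu-miR-224-3p: aAAUGGUGcccuagugacuaca
mmu-miR-452-5p: uGUUUGCAgaggaaacugagac
mmu-miR-452-3p: uCAGUCUCaucugcaaagaggu
No pair of these seeds is alike. In the longest annotated 3′ UTR of each gene (GENCODE M21, GRCm38), 5 of the 9 members held at least 1 match to a seed of any arm, 10 matches in all. Matches to the 5p seeds are shown, with the 7 paired bases in capitals.
Irs1, chr1:82235589-82235618, minus strand, miR-224-5p: actctcattgttaaaGTGACTTtttaattt
Irs1, chr1:82234489-82234518, minus strand, miR-224-5p: atacctttaaaatggGTGACTTaaagatag
Akt2, chr7:27639827-27639856, plus strand, miR-224-5p: gccatcataaaatctGTGACTTaacagggc
Tbc1d4, chr14:101443702-101443731, minus strand, miR-224-5p: tgccattttacttaaGTGACTTctacacag
Pik3r1, chr13:101683042-101683071, minus strand, miR-452-5p: gtggagattgttaagTGCAAACatttaaca
Foxo1, chr3:52349866-52349895, plus strand, miR-452-5p: gtgcattgtgctttaTGCAAACcaaacagc
A match to the miR-224-5p seed occurred in 12.9% of 20815 genes with a 3′ UTR and a match to the miR-452-5p seed in 9.82%. For the 3p arms, Akt2, Pik3r1 and Tbc1d4 held a miR-224-3p match and Irs1 a miR-452-3p match. Of the same 20815 genes, 9.31% held a miR-224-3p match and 12.8% a miR-452-3p match. UTR length was not taken into account in these shares, and no share was taken for a match to any arm. Insr, Irs2, Slc2a4 and Slc2a1 held no match in these UTRs. A match is a stretch of letters and not a measured binding site.

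In control fat the transporter Slc2a4 was the most abundant of the 9 genes per length. Its level in RPKM (reads per kilobase of exon, scaled to the library's total reads in genes) was 77.5, 41.8, 49.5 and 78.0 in the 4 WAT scramblemiR libraries and 130.0, 158.0, 136.0 and 164.0 in the 4 BAT libraries. The BAT values all lay above the WAT values. Pik3r1 came next in WAT at 39.4 ± 15.4 (SD, n = 4), with a range that overlapped that of Slc2a4. Akt2, Foxo1, Irs2, Insr, Irs1 and Tbc1d4 followed between 21.4 ± 2.76 and 11.2 ± 1.77 (SD, n = 4 each), and each overlapped its neighbour in the order. Slc2a1 was lowest in both tissues, at 7.16 ± 2.78 in WAT and 3.99 ± 0.871 in BAT (SD, n = 4 each). In BAT the order below Slc2a4 was Irs2 (29.3 ± 12.2), Akt2 (25.8 ± 2.48), Foxo1 (20.7 ± 2.34), Pik3r1 (15.6 ± 8.86), Insr (12.1 ± 3.51), Tbc1d4 (11.1 ± 4.45) and Irs1 (7.55 ± 1.99), SD with n = 4 each. All neighbours overlapped there except Slc2a4 with Irs2 and Irs1 with Slc2a1. These levels use exon lengths of GENCODE M21, which need not be those the authors counted over.

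**Figure D1:**
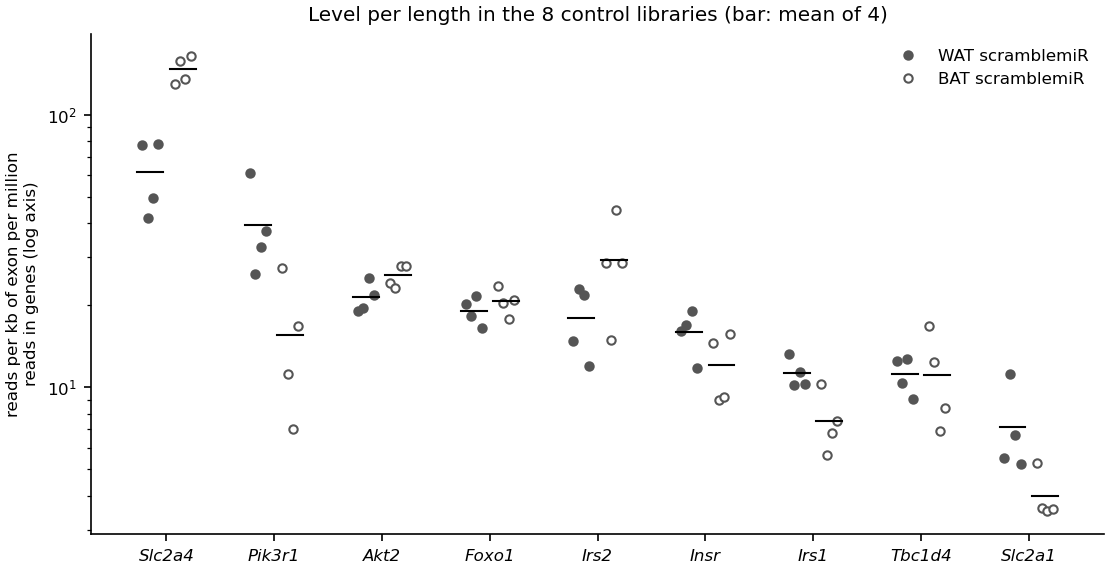
Level of each gene in RPKM, reads per kilobase of exon scaled to total reads in genes (log axis), in the 4 WAT (filled) and 4 BAT (open) scramblemiR libraries, with bars at the mean. Slc2a4 ran from 41.8 to 78.0 in WAT and from 130.0 to 164.0 in BAT, while Slc2a1 was lowest in both tissues.

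Between control tissues, limma with median-ratio scaling called 4 of the 9 members at an adjusted p under 0.05, all 4 higher in BAT, where 19.9% of all 16825 genes tested were called higher and 42.0% were called in either direction. Slc2a4 differed most, by 1.82 ± 0.27 (SE) on the log2(count + 1) scale, higher in BAT (limma adjusted p 0.000617). The others were the adaptor gene Irs2 (1.18 ± 0.30, adjusted p 0.0116), the kinase gene Akt2 (0.80 ± 0.17, adjusted p 0.00429) and Foxo1 (0.64 ± 0.17, adjusted p 0.0126), all by limma. BAT and WAT libraries did not overlap for Slc2a4, Akt2 and Foxo1, whereas for Irs2 the lowest BAT library (2453) lay below the highest WAT library (2531). Pik3r1 differed by -0.91 ± 0.44 and did not pass (limma adjusted p 0.127). Insr, Irs1, Slc2a1 and Tbc1d4 differed by 0.10, -0.08, -0.27 and 0.44 on the same scale, and none passed. With other size factors (TMM), limma also called 4 members. Among them were Slc2a4 (1.85, adjusted p 0.000655), Irs2 (1.21, adjusted p 0.00878) and Akt2 (0.83, adjusted p 0.00378), all by limma. The median of all genes was -0.08 (log2, BAT minus WAT) with median-ratio scaling and -0.05 with TMM. Of all genes called, 47.4% and 49.1% were higher in BAT. Most of the 4 member calls changed with libraries scaled to their total reads in genes, an alternative chosen after seeing the data. With that scaling the median of all genes was -0.59, and 18.5% of all genes called were higher in BAT. Slc2a4 was still higher in BAT there (1.30, limma adjusted p 0.00113), while Irs2 (0.66, adjusted p 0.126), Akt2 (0.28, adjusted p 0.127) and Foxo1 (0.11, adjusted p 0.514) no longer passed in limma. Irs1 (-0.61), Slc2a1 (-0.79) and Pik3r1 (-1.44) were instead called lower in BAT by limma with that scaling (adjusted p 0.0230, 0.0261 and 0.0165). The 20 most abundant genes took 14.5% to 22.1% of reads in the WAT controls and 23.5% to 28.1% in the BAT controls. Under median-ratio scaling Foxo1 also lost its call without the muscle-rich and germ-cell-rich control libraries (0.46, limma adjusted p 0.109). Pik3r1 was called lower in BAT by limma in that same fit (-1.51, adjusted p 0.0338) and also without BAT library 1 alone (-1.23, adjusted p 0.0381).

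Irs2, the adaptor gene, differed most from control of the 9 genes after treatment, in BAT, although no member passed an adjusted p of 0.05 in any inhibitor comparison with all libraries kept. The gene (ENSMUSG00000038894) lies on chromosome 8, 10984681 to 11008458, minus strand, GRCm38. In BAT its normalized counts were 3341, 1850, 5087 and 3531 with scramblemiR, 1363, 998, 1223 and 1869 in the antimiR-224 libraries and 1305, 819, 903 and 776 after antimiR-452. All 4 antimiR-452 values lay below every control, and with antimiR-224 the highest value, 1869, lay just above the lowest control. Group means were 3452 ± 1324 (SD, n = 4) for scramblemiR, 1363 ± 369 (SD, n = 4) for antimiR-224 and 951 ± 242 (SD, n = 4) for antimiR-452.

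By limma, Irs2 in BAT differed from control by -1.29 ± 0.31 (SE) on the log2(count + 1) scale with antimiR-224 (adjusted p 0.732, unadjusted p 0.00221), a level of 40.9% of control. With antimiR-452 the difference was -1.81 ± 0.33 (adjusted p 0.999, unadjusted p 0.000345), a level of 28.5% of control. Both comparisons share the same 4 controls. The authors' deposited table gives log2 ratios of -1.34 (unadjusted p 0.00146, adjusted p 1.0) and -1.87 (unadjusted p 0.000599, adjusted p 1.0). Among all genes tested, 1.24% had antimiR-224 libraries entirely below the controls in BAT and 1.46% had antimiR-452 libraries entirely below them. Leaving out 1 library at a time moved the difference between -1.56 and -1.07 for antimiR-224, and for antimiR-452 between -2.08 and -1.60. No member was called by limma in any of these fits.

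Muscle genes and immediate early genes varied between the same BAT libraries. The 2 controls with the highest Irs2, libraries 3 and 4, had muscle sums of 69.2 and 122, against 63821 and 63239 in the other 2. Irs2 in those other 2 was 3341 and 1850. Without the 2 muscle-rich controls and library 1 of the inhibitor group, a choice made after seeing the data, Irs2 differed by -1.69 ± 0.30 with antimiR-224 (limma adjusted p 0.113) and by -2.36 ± 0.30 with antimiR-452 (limma adjusted p 0.116). The 17 immediate early genes, which respond within minutes to stress or handling, summed to 12069, 18851, 25600 and 8348 in the controls. They summed to 11336, 7453, 6698 and 6838 in the antimiR-224 libraries and to 14403, 5281, 7423 and 5214 after antimiR-452. BAT scramblemiR library 3 thus had both the highest Irs2 and the highest immediate early sum, but library 4 had the lowest sum of the controls and an Irs2 count of 3531. The part of immediate early genes in the Irs2 difference was not tested.

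**Figure D2:**
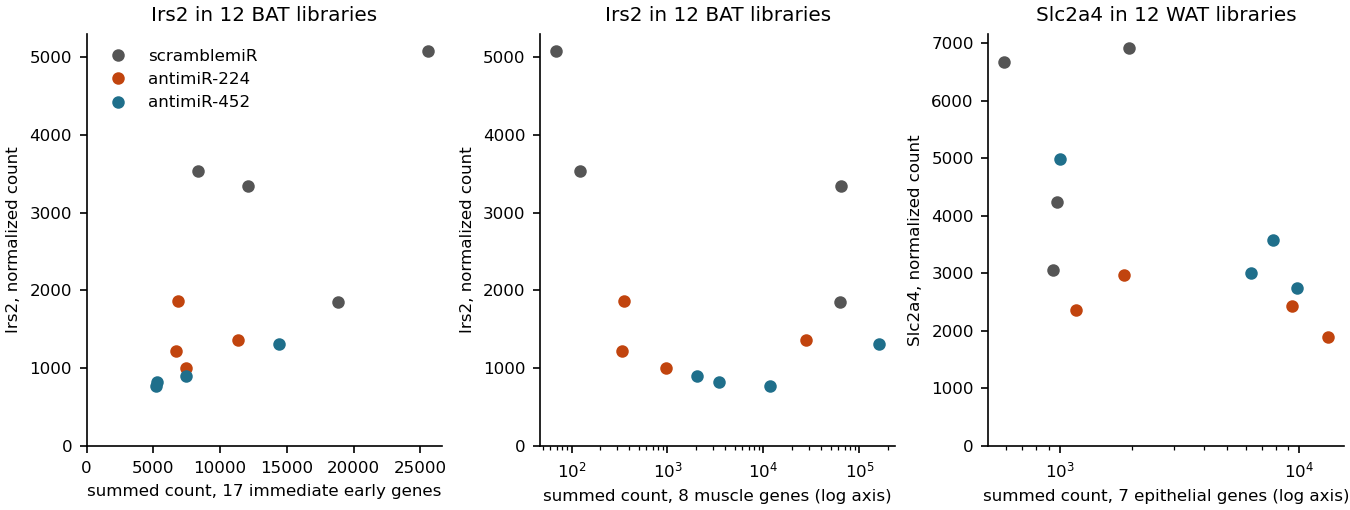
Irs2 in the 12 BAT libraries against the summed counts of 17 immediate early genes and of 8 muscle genes (log axis), and Slc2a4 in the 12 WAT libraries against 7 epithelial markers (log axis), 1 point per library. Irs2 controls at 69.2, 122 and 63821 muscle counts stood at 5087, 3531 and 3341, above every inhibitor library. The control at 63239 muscle counts stood at 1850.

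In WAT, Irs2 was close to control with either agent. Its counts were 2320, 3051, 3395 and 1930 with scramblemiR, 2460, 2251, 3887 and 3235 in the antimiR-224 libraries and 2773, 2352, 2197 and 3088 after antimiR-452. The groups overlapped throughout, with limma differences of 0.15 ± 0.23 and -0.03 ± 0.20 (adjusted p 0.906 and 0.999).

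Slc2a4, the insulin-responsive transporter gene (ENSMUSG00000018566, chromosome 11, 69942539 to 69948188, minus strand, GRCm38), had its lowest values in WAT with antimiR-224. Its normalized counts there were 6666, 3049, 4238 and 6910 with scramblemiR and 2438, 1888, 2978 and 2356 with antimiR-224. Every antimiR-224 library lay below every control, the closest pair being 2978 and 3049, whereas 1.74% of all genes tested were placed this way. Means were 5216 ± 1882 and 2415 ± 447 (SD, n = 4 each). The limma difference was -1.05 ± 0.27 (SE), a level of 48.3% of control (adjusted p 0.798, unadjusted p 0.00417). In the authors' deposited table the log2 ratio is -1.11 with an unadjusted p of 0.00295 and an adjusted p of 1.0. With antimiR-452 the WAT counts were 3009, 2736, 3577 and 4989 (limma -0.51 ± 0.29, adjusted p 0.998). The groups overlapped, with 2 of these values below the lowest control. Slc2a4 was thus not among the 0.667% of all genes with every antimiR-452 library below the controls. Without antimiR-452 library 3, rich in muscle genes, and control library 2, rich in germ cell genes, the difference was -0.76 ± 0.29 (limma adjusted p 0.823).

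The WAT libraries that were high in Slc2a4 also differed in other genes. Scrambled-control libraries 1 and 4, at 6666 and 6910, had summed brown adipocyte markers of 1253 and 1380, against 343 and 489 in controls 2 and 3 and 289 to 701 in the inhibitor libraries. In the authors' deposited table all 8 adipocyte markers had log2 ratios below 0 after antimiR-224, with a median of -0.36, and all 8 macrophage markers above 0, with a median of 0.48. Without antimiR-224 libraries 1 and 2, rich in epithelial genes, the Slc2a4 difference was -0.90 ± 0.35 (limma adjusted p 1.0). With those 2 kept, control library 2 and antimiR-224 libraries 3 and 4, rich in germ cell genes, were left out in another fit. There the Slc2a4 difference was -1.43 ± 0.25 and passed (limma adjusted p 0.0252). The inhibitor group was then the 2 epithelium-rich libraries alone, so their makeup and the treatment cannot be told apart. In that fit 1375 of 16900 genes were called, and 2 of the 9 members, the other being Slc2a1 (0.79 ± 0.15 higher, adjusted p 0.0310). The part of cell type makeup in these values was not tested beyond that.

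In BAT, Slc2a4 counts were 8333, 10775, 8496 and 11064 with scramblemiR, 11710, 7671, 10220 and 11745 in the antimiR-224 libraries and 12211, 9510, 14939 and 8289 after antimiR-452. The groups overlapped (limma 0.09 ± 0.20 and 0.18 ± 0.27, adjusted p 0.891 and 0.999). Its antimiR-224 values in BAT thus lay around control, yet the difference between tissues did not pass. The effect in BAT minus that in WAT was 1.14 ± 0.34 with antimiR-224 in limma (adjusted p 0.597, unadjusted p 0.00452).

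**Figure D3:**
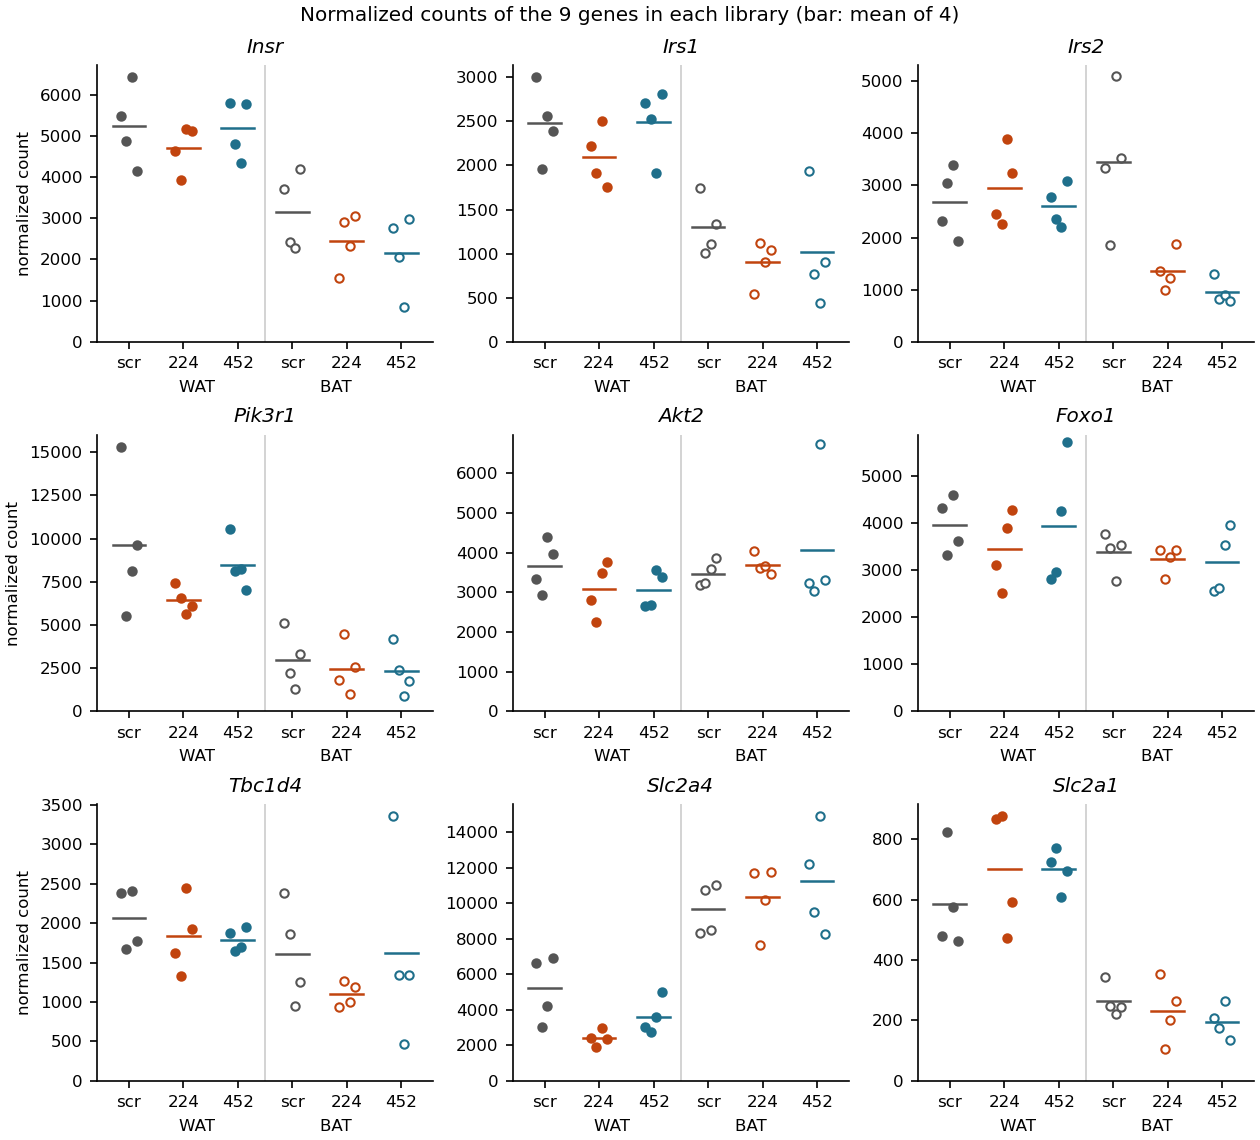
Normalized count of each gene in every library, 4 per group, with bars at group means (filled WAT, open BAT; from left to right scramblemiR, antimiR-224 and antimiR-452 in each tissue). Tissues were scaled separately, so heights compare only within a tissue; in BAT the 4 antimiR-452 values of Irs2 (776 to 1305) lie below all controls, and in WAT the 4 antimiR-224 values of Slc2a4 (1888 to 2978) do.

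Counting all 9 members, the authors' deposited table called 0 after antimiR-224 in WAT, where 0.00343% of all genes were called (1 gene, Cilp), and 0 in each of the other 3 comparisons, where 0.0% were. The limma fits called 0 members and 0.0% of genes in all 4 comparisons. At an unadjusted p under 0.05, limma and the deposited test each named only Slc2a4 in WAT with antimiR-224, no member in WAT with antimiR-452, and only Irs2 in BAT with either agent. Of all genes in the authors' deposited table, 1.55%, 2.41%, 1.15% and 0.499% had such a p in WAT with antimiR-224, WAT with antimiR-452, BAT with antimiR-224 and BAT with antimiR-452. By limma 6.23%, 4.46%, 5.98% and 3.87% of all genes tested had one in the same order, and 0 or 1 of 9 members is no result about the set beside such shares. By limma 7 members lay below 0 and 2 above in each comparison, where both agents share the controls of a tissue. The share of all genes below 0 was not taken. Some members lay at about 0, such as Irs1 in WAT with antimiR-452 (0.0, counted above). Tbc1d4 in BAT with antimiR-452, counted below (-0.24 ± 0.56), had a deposited log2 ratio of 0.0. Member medians (log2) were -0.22, -0.07, -0.30 and -0.41 in the same order, against 0.02, -0.03, -0.07 and -0.05 for all genes tested.

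**Figure D4:**
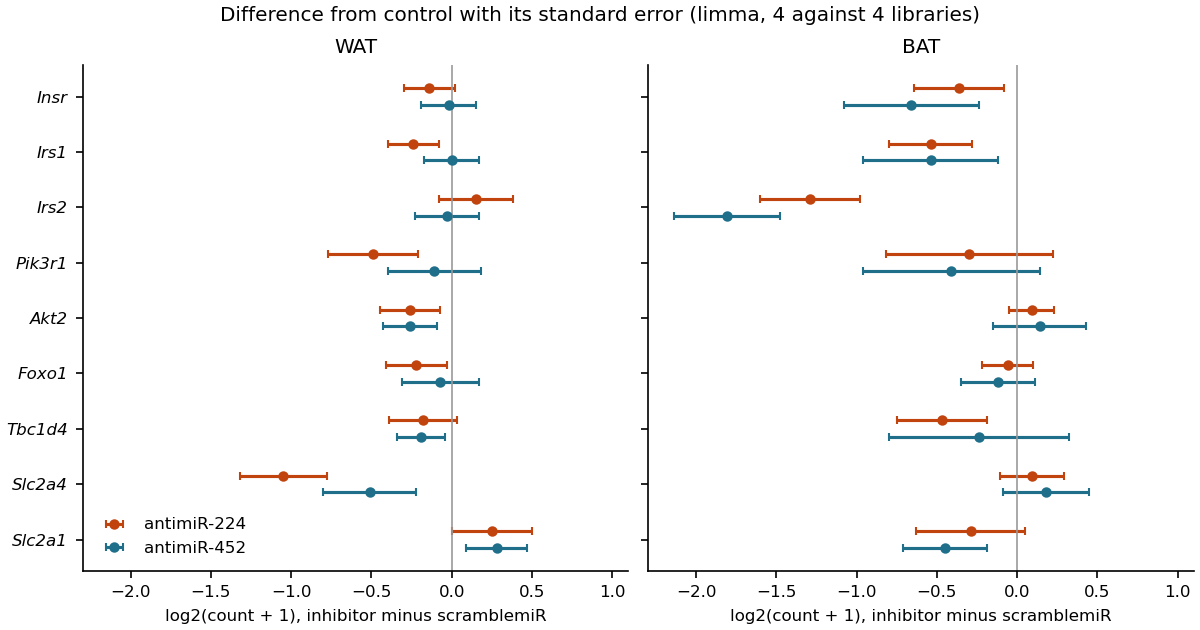
Difference of each gene from control on the log2(count + 1) scale with its standard error (limma, 4 against 4 libraries), in WAT and BAT. Slc2a4 in WAT with antimiR-224 (-1.05) and Irs2 in BAT with antimiR-224 (-1.29) and antimiR-452 (-1.81) lie farthest from 0, and no point passed an adjusted p of 0.05.

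The receptor gene Insr (ENSMUSG00000005534, chromosome 8, 3122061 to 3279617, minus strand) was close to control in WAT, with limma differences of -0.14 ± 0.16 and -0.02 ± 0.17 for antimiR-224 and antimiR-452. In BAT its counts were 3706, 2427, 2281 and 4200 with scramblemiR, 1541, 2904, 2327 and 3044 in the antimiR-224 libraries and 2766, 2057, 835 and 2974 after antimiR-452. Library 3 of the antimiR-452 group was lowest by far, and the ranges overlapped (limma -0.36 ± 0.28 and -0.66 ± 0.42, adjusted p 0.748 and 0.999).

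Irs1, the other adaptor gene (ENSMUSG00000055980, chromosome 1, 82233101 to 82291416, minus strand), holds 2 matches to the miR-224-5p seed. With antimiR-224 its counts in WAT were 2226, 1910, 2503 and 1758, against 3008, 1956, 2556 and 2391 in the controls. Most of these values lay below the control mean. The difference was -0.24 ± 0.16 in WAT (limma adjusted p 0.808) and -0.54 ± 0.26 in BAT (limma adjusted p 0.732). Its BAT counts were 1741, 1010, 1114 and 1332 with scramblemiR, 544, 1121, 907 and 1045 in the antimiR-224 libraries and 1937, 768, 442 and 904 after antimiR-452. The groups overlapped, and antimiR-452 library 1, the library richest in muscle genes, was the highest of the 12.

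Pik3r1 (ENSMUSG00000041417, chromosome 13, 101680563 to 101768217, minus strand) varied most among the controls of the 9 genes in both tissues. Its WAT control counts were 15288, 5493, 8138 and 9601, a 2.78-fold range, and its BAT control counts 5115, 2213, 1269 and 3292, a 4.03-fold range. In the controls the coefficient of variation was 43.0% in WAT and 55.5% in BAT, against medians of 19.4% and 19.0% over genes with a mean of at least 50. Inhibitor counts were 7436, 6563, 5607 and 6094 (antimiR-224) and 10529, 8117, 8255 and 7045 (antimiR-452) in WAT, inside the control range. In BAT they were 1793, 4468, 996 and 2575, and 4212, 2414, 878 and 1732. The largest difference from 0 was -0.49 ± 0.28 in WAT with antimiR-224 (limma adjusted p 0.805). Pik3r1 holds a match to the miR-452-5p seed, and its antimiR-452 differences were -0.11 ± 0.29 in WAT and -0.41 ± 0.55 in BAT.

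The kinase gene Akt2 (ENSMUSG00000004056, chromosome 7, 27591552 to 27640826, plus strand), with a match to the miR-224-5p seed, differed by -0.26 ± 0.19 in WAT and 0.09 ± 0.14 in BAT with antimiR-224 (limma adjusted p 0.811 and 0.852). Its BAT counts were the steadiest of the set, at 3193, 3239, 3582 and 3870 with scramblemiR and 4040, 3598, 3652 and 3454 with antimiR-224. With antimiR-452 they were 3239, 3022, 6742 and 3299, so that library 3 stood far above the other 3. In WAT the antimiR-452 counts were 2659, 2681, 3554 and 3378, against 3347, 2950, 4434 and 4010 in the controls of that table (-0.26 ± 0.17, adjusted p 0.998 by limma).

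Foxo1 (ENSMUSG00000044167, chromosome 3, 52268336 to 52353221, plus strand), the transcription factor that AKT2 keeps out of the nucleus, holds a match to the miR-452-5p seed. Its antimiR-452 counts were 2816, 2965, 4265 and 5726 in WAT and 2568, 2633, 3543 and 3959 in BAT. Controls of those tables ran from 3341 to 4632 in WAT and from 2770 to 3789 in BAT. In each tissue 2 inhibitor libraries thus lay below all controls, and the highest, 5726 and 3959, lay above all of them. The limma differences were -0.07 ± 0.24 and -0.12 ± 0.23 (adjusted p 0.998 and 0.999).

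Tbc1d4 (ENSMUSG00000033083, chromosome 14, 101442360 to 101609191, minus strand), with a match to each miR-224 seed, had BAT counts of 2380, 1868, 949 and 1250 with scramblemiR. With antimiR-224 these were 939, 1266, 1003 and 1192, and with antimiR-452 they were 3362, 1340, 462 and 1336. The antimiR-452 group spanned a 7.27-fold range, and its highest value was again in library 1 and its lowest in library 3. With antimiR-224 the differences were -0.18 ± 0.21 in WAT and -0.47 ± 0.28 in BAT (limma adjusted p 0.862 and 0.732). Without the muscle-rich libraries, a choice made after seeing the data, the BAT difference was 0.08 ± 0.23. For Irs1, Akt2 and Tbc1d4, the 3 members with a miR-224-5p match, antimiR-224 and control libraries overlapped in both tissues. Whether these matches have a part in the values was not tested, and the inhibited arm is not stated.

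Slc2a1 (ENSMUSG00000028645, chromosome 4, 119108711 to 119137983, plus strand), the insulin-independent transporter gene, lay above control in WAT with both agents. Its WAT counts were 479, 824, 576 and 465 with scramblemiR, 867, 878, 472 and 593 in the antimiR-224 libraries and 725, 773, 610 and 695 after antimiR-452. The ranges overlapped with both agents, and control library 2, the germ-cell-rich one, was the highest control (limma 0.25 ± 0.25 and 0.28 ± 0.19, adjusted p 0.848 and 0.998). The 2 highest antimiR-224 values were those of the epithelium-rich libraries, and without them the difference was -0.11 ± 0.26. In BAT its counts were 343, 247, 220 and 244 with scramblemiR, 355, 107, 202 and 266 in the antimiR-224 libraries and 209, 176, 264 and 136 after antimiR-452 (limma -0.29 ± 0.34 and -0.45 ± 0.26, adjusted p 0.812 and 0.999).

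Whether an inhibitor acted differently on the 9 genes in WAT and BAT was tested on the differences themselves. From the ratios of the authors' deposited table, 0 members passed with either agent, as did 0.0% of all genes, and limma gave 0 members and 0.0% of genes as well. For Irs2 the effect in BAT minus that in WAT was -1.44 ± 0.41 with antimiR-224 and -1.79 ± 0.39 with antimiR-452 in limma (adjusted p 0.597 and 0.855, unadjusted p 0.00291 and 0.000352). At an unadjusted p under 0.05, limma named Irs2 and Slc2a4 with antimiR-224, where 8.27% of genes had such a p, and Irs2 and Slc2a1 with antimiR-452, where 5.48% did. Slc2a1 differed there by -0.74 ± 0.32. These tests treat the tissues as independent, as does the comparison of control tissues.

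The wider pathway was read from 7 lists of 108 genes in all, chosen with earlier results known. In the authors' deposited table no listed gene passed an adjusted p of 0.05 in any comparison, out of 104 measured in WAT and 98 in BAT at a mean of at least 10. List medians in that deposited table lay between -0.43 and 0.25 (log2), with medians over all genes between -0.05 and 0.06. Both extremes came after antimiR-224, the lowest in BAT for FOXO factors and genes known as FOXO targets (12 of 15 below 0) and the highest in WAT for insulin and IGF ligands and binding proteins (8 of 9 above 0). Genes of mTOR, GSK3 and other AKT branches lay below 0 in 14 of 15 cases in WAT with antimiR-224, with a median of -0.19.

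Of the listed genes, 4 had an unadjusted p under 0.05 in the deposited test in WAT after antimiR-224, 3 in WAT after antimiR-452 and 0 in BAT after either agent. In WAT 104 listed genes were measured, and 1.55% and 2.41% of all genes in the authors' deposited table had such a p. Those named here were picked by that p. Gys1, the glycogen synthase of muscle and fat, was at 5437, 4302, 5908 and 5736 with scramblemiR and 3461, 2767, 3999 and 3756 with antimiR-224. These groups did not overlap, as for 1.74% of all genes tested (limma -0.62 ± 0.15, adjusted p 0.798). Sh2b2, an adaptor of the insulin receptor, was at 2472, 1517, 2187 and 2280 and at 1439, 653, 1670 and 1288 (limma -0.80 ± 0.29, adjusted p 0.798), with the highest inhibitor value above the lowest control. Hk2, the hexokinase of insulin-sensitive tissues, was at 5231, 3514, 5276 and 4696 and at 3068, 2261, 4042 and 4143, which overlapped (-0.49 ± 0.22, adjusted p 0.798 by limma).

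The listed genes with higher values in WAT were highest in the epithelium-rich libraries, and the part of those cells in their values was not tested. Ptprf, a receptor phosphatase also made by epithelia, was at 1615, 1305, 1285 and 1168 in the controls and at 3405, 3322, 2203 and 1307 with antimiR-224. With antimiR-452 it was at 3624, 2726, 2740 and 1383, the last being the library low in epithelial markers. Igf1r, the IGF1 receptor gene, was at 2083, 2381, 1956 and 982 with antimiR-452, against 1034, 1152, 1082 and 1139, and Igfbp1, an IGF binding protein gene, at 86.8, 187, 114 and 9.99 against 0.0 to 15.1. By limma none of the 3 passed (adjusted p 0.798 to 0.998). Igf1r and Igfbp1 in antimiR-452 library 4, with 1000 epithelial marker counts, lay within the control range or below it.

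Between the control tissues, limma with median-ratio scaling called 24 of 101 tested listed genes higher in BAT and 21 lower, against 19.9% and 22.1% of all genes, so the lists as a whole lay near the background. Of the mTOR, GSK3 and AKT branch genes 7 of 15 were higher in BAT and 0 lower, among them Mtor (1.94 ± 0.21, adjusted p 0.000101) and Gys1 (1.23 ± 0.20, adjusted p 0.00108). Of 8 insulin and IGF ligand and binding protein genes tested, 5 were lower in BAT and 2 higher, with Igfbp2 (-6.13 ± 0.69, adjusted p 0.000126) and Igf1 (-3.21 ± 0.37, adjusted p 0.000172) lowest. Among transporters and hexokinases Hk2 was higher (1.89 ± 0.20, adjusted p 8.91e-05) and Slc2a3, a GLUT of leukocytes and neurons, lower (-2.67 ± 0.31, adjusted p 0.000148). Pdk4, which shuts glucose carbon out of the citric acid cycle and is a known FOXO target, was higher in BAT by 6.17 ± 0.19 (adjusted p 4.24e-07), all by limma. These genes were named after their values were seen, and under total-read scaling such differences move towards WAT, as the median of all genes did.

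Across the 12 libraries of a tissue, the 9 genes fell into different patterns of likeness, given here as Pearson's r of log2(count + 1) and as a description only, since libraries of a tissue share groups and cell makeup. In BAT the closest members were Irs1 with Tbc1d4 (r 0.85) and with Insr (r 0.84), whereas Akt2 ran against Tbc1d4 (r -0.79) and Insr (r -0.75). BAT antimiR-452 library 3, high in Akt2 and low in Insr, Irs1 and Tbc1d4, is among those 12. In WAT, Akt2 and Foxo1 were closest (r 0.79), and Slc2a1 ran against Akt2 (r -0.77) and Tbc1d4 (r -0.75). The gene most like Slc2a4 in WAT was Hadha, a subunit of the mitochondrial enzyme of fatty acid oxidation (r 0.98, 13974 genes compared), then Ttyh2 (0.98) and Clstn3 (0.97). Most like Irs2 in BAT were Fosl2, an AP-1 factor (r 0.90, 11531 genes compared), Sntb2 (0.88) and Spry2 (0.87), and in WAT Cldn15 (0.95), Il16 (0.94) and Ninl (0.94). Akt2 in WAT was most like Ormdl3 (0.95), Trarg1 (0.94), a protein of GLUT4 vesicles, and Actr1a (0.92).

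The other members had closest genes of varied kinds. In WAT, Insr was most like Heatr6 (0.93), St3gal4 (0.92) and Gpam (0.92), the last an enzyme of triglyceride synthesis. Pik3r1 was most like Vars2, Lrrc3 and Osbpl2 there (0.87 each), Foxo1 like Rnf144b (0.95), Pphln1 (0.92) and Adcy5 (0.91), Tbc1d4 like Rasa3 (0.97), Amotl1 (0.96) and Gpr146 (0.94), and Slc2a1 like Vwa1, Map3k14 and F2rl1 (0.92 each). In BAT, Insr was most like Pigg (0.98), Gm6877 (0.98) and Gm1818 (0.97), and Irs1 like Nvl, Cpd and Abca5 (0.97 each). Pik3r1 was most like Flvcr1, Unc13b and Cecr2 (0.89 each) in BAT, Akt2 like Tmem115 (0.96), Ccdc71 (0.95) and Lrrc14 (0.94), and Foxo1 like Ripk4 (0.89), Car5b (0.86) and Gramd1b (0.86). Tbc1d4 in BAT was most like Zbtb18 (0.99), Cep85l (0.99) and Enpp4 (0.98), Slc2a1 like Pmp22 (0.88), Nploc4 (0.84) and Gsr (0.84), and Slc2a4 like Zswim1 (0.91) and the tRNA synthetase genes Yars (0.91) and Mars (0.90).

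The recovered counts can be set beside the spread that stands behind each deposited p-value. For 11 of the 36 member values the dispersion (squared biological coefficient of variation) that gives the p of the authors' deposited table equals the gene's own estimate, and for 25 it is larger. Where several sets of reads gave a mean, the set was chosen by that same p, so such a relation was built into the choice. This holds for the Slc2a4 and Akt2 values below, whereas the Irs2 reads in BAT followed from the means alone. For Slc2a4 in WAT with antimiR-224 it is the gene's own, 0.128. For Irs2 in BAT it is the gene's own, 0.163, with antimiR-224, and 0.251 against an own value of 0.184 with antimiR-452. The largest ratio of the 2 dispersions was that of Akt2 in BAT with antimiR-224, whose own dispersion was 0.00612 where 0.127 stands behind the p of the authors' deposited table.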

How the data were processed

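The authors compared 4 libraries with 4 in each of 4 tables with DESeq 1.10.1 in R 2.15.3 on GRCm38.p4, per the submitters' processing notes. Their aligner and read counter are not stated there. The deposited columns are the mean signal (size-factor normalized counts averaged over a group), the ratio of means, its log2, and p-values with their adjusted form, per the file headers. The 9 members and all lists were chosen with earlier results of these data known.

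The means are printed to 15 digits, so the whole reads behind them were recovered for 99.3% to 99.6% of genes; where several sets of reads gave a mean, the set that also gave the deposited p-value was taken. Tested on simulated data, 2, 0, 1 and 0 of 28097, 28045, 23062 and 23225 decoded genes were wrong (WAT antimiR-224, WAT antimiR-452, BAT antimiR-224, BAT antimiR-452). The simulated p-values were made with the same p formula and form of dispersion curve that the recovery assumes. An error in either could therefore not show there. Between 36 pairs of libraries of a group the lowest chi-square per degree of freedom was 22.1, so none was a copy of another. Recovered values were tested with limma 3.58.1 (R 4.3.3; trend and robust variance) on log2(normalized count + 1) for genes with a mean of at least 10, with Benjamini-Hochberg adjustment and a threshold of 0.05. A pseudocount of 1 understates changes of low genes. On simulated data of the same means, limma called 52, 44, 32 and 12 of 100 genes changed 2-fold and 71, 80, 82 and 53 of 100 changed 4-fold in the same order (17694, 17593, 14364 and 14481 genes), and 30 and 74 between control tissues (16312 genes). The tissue difference of an effect was taken from deposited log2 ratios with errors from their p-values, and from limma.

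The lists of immediate early and of less abundant muscle genes were added after seeing the data. All members were named; a listed gene was named where its deposited unadjusted p was under 0.05 and its mean at least 50, up to 4 per list and comparison, and so were the 3 genes most like each member over 12 libraries (for Irs1 in WAT these are not reported here). Alternatives were other size factors (TMM), pseudocounts 0.5 and 5, minimum means 0 and 50, no robust variance, and leaving out libraries. Scripts ran in Python 3.11.15 with numpy 2.4.6, pandas 2.3.3 and scipy 1.17.1.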

Additional observations from a re-analysis of the deposited data

Results flagged for a closer look

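Akt2 in BAT with antimiR-452 was 6742 normalized counts in library 3, while the other 3 libraries of the group lay between 3022 and 3299. The gap to its nearest neighbour was 0.926 of the group's range, above Dixon's 95% critical value for 4 samples. It was 1 of 54 groups of 4 examined, and chance alone puts about 1 in 20 groups past that value. The same library had the lowest Insr (835), Irs1 (442) and Tbc1d4 (462) and the highest Slc2a4 (14939) of the 12 BAT libraries.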

How the results depend on the processing

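No paired analysis was possible because the recovered reads carry no replicate number of the labels. Of the counts of members called, 46 values under other settings and 40 with 1 library left out stayed within 1.5 times the count first given. In the inhibitor comparisons such a count was 0 apart from the exception below. Between control tissues a like count hid a change of members. With total-read scaling Irs1, Slc2a1 and Pik3r1, called lower in BAT, took the place of Irs2, Akt2 and Foxo1, called higher. The exception in count was WAT with antimiR-224 without the libraries rich in germ cell genes, a choice made after seeing the data. There 2 members were called instead of 0. Fewer samples enter that fit, its inhibitor group is the 2 epithelium-rich libraries alone, and the cause was not tested. Without antimiR-452 library 4 in WAT, 543 genes were called in all, but no member. The inhibitor libraries of that fit are all epithelium-rich (6276, 9730 and 7744 marker counts, against 1000 in library 4). Their makeup and the treatment cannot be told apart there. Some members changed sign, and not only those near 0. Tbc1d4 in BAT with antimiR-224 was at -0.47 with all libraries kept. With 1 library left out at a time the ranges were, in WAT with antimiR-452, Insr -0.12 to 0.09, Irs2 -0.17 to 0.10, Pik3r1 -0.35 to 0.14 and Foxo1 -0.27 to 0.07. In BAT they were Slc2a1 -0.53 to 0.04, Pik3r1 -0.66 to 0.06 and Foxo1 -0.15 to 0.01 with antimiR-224, and Akt2 -0.13 to 0.26 and Tbc1d4 -0.70 to 0.25 with antimiR-452. Between control tissues they were Insr -0.06 to 0.24 and Irs1 -0.23 to 0.04. TMM gave Insr 0.01 in WAT with antimiR-452. Without the marker-rich libraries, also chosen after seeing the data, values were Irs2 -0.07 (germ cell), Slc2a1 -0.11, Foxo1 0.06 and Tbc1d4 0.10 (epithelial) in WAT with antimiR-224, and Insr 0.04 and Irs2 0.13 in WAT with antimiR-452. In BAT without muscle-rich libraries they were Akt2 -0.06, Pik3r1 0.14, Foxo1 0.02 and Tbc1d4 0.08 with antimiR-224 and Foxo1 0.08 with antimiR-452. Between control tissues, total-read scaling gave Insr -0.42 and Tbc1d4 -0.08, and leaving out muscle-rich and germ-cell-rich libraries gave Tbc1d4 -0.12. The cause of these sign changes was not tested. The lowest count of a member in a control library was 208 reads.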
